A study of Mus musculus with 8 samples.

Results

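Bins that carry an H3K27ac peak and that had lower HiChIP coverage after lipopolysaccharide (LPS) in cells with either isoform of CEBPA are described here. They are 1240 bins of 5 kb, selected on the coverage itself, out of the 31321 bins that have the peak flag in all 4 deposited interaction lists. For each bin the log2 ratio of LPS over untreated (UT) coverage was taken in p30 and in p42 and centred on its median over the 31321 tested bins, and bins at -0.25 or less in both isoforms were kept. With centring on the ratio of modelled contacts, a measure of depth, 742 bins were kept, 374 of them among the 1240. The lists together name 75822 bins, of which 64985 have the peak flag in at least 1 list.

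HPC-7 is a mouse haematopoietic progenitor line that grows in stem cell factor and has little endogenous CEBPA. The lines carried a retroviral transgene for p42, the full-length protein, or for p30, the shorter form made in leukaemia with N-terminal mutations. In the study's methods the plain names p30 and p42 HPC-7 stand for fusions to ERT2, which enter the nucleus with 4-hydroxytamoxifen, and unfused lines are called constitutive. This points to the fusions here, though the labels do not name the construct. All 4 groups carry a transgene: p30 or p42, each left untreated or treated, with LPS from Escherichia coli given at 100 ng/mL for 2 h. Each group has 2 libraries pooled in 1 list, 8 libraries in all, so no spread between replicates can be given and every difference below compares pooled libraries, without a test. Of all 21770 protein-coding start sites 6232 lay in tested bins, and of haematopoietic progenitor markers 12 of 13 did. For T cells, mast cells and fibroblasts or stroma it was 0 of 3 each, and these lists are too short to be read against the share of all. Erythroid markers had 2 of 5 start sites in tested bins, granulocyte markers 2 of 5, macrophage markers 1 of 4 and B cell markers 1 of 3.

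H3K27ac, acetylation of lysine 27 of histone H3, marks active promoters and enhancers, and HiChIP joins DNA ends that lie close in the nucleus before fragments with the mark are pulled down. The coverage of a bin counts the reads in it and moves with the amount of the mark there. LPS is sensed by TLR4 and sends NF-kB and AP-1 factors to inflammatory genes within hours, while enhancers of other programmes are known to lose acetylation in the same time. In haematopoietic progenitors such programmes include those kept by GATA, RUNX and ETS factors for stem cell, erythroid and megakaryocyte genes, and by CEBP factors for granulocyte genes.

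The sequences of 6 windows are shown because the results below turn on their bins: 300 bases before the start sites of Igll1, Mpo and Cebpe, and 300 bases from 3 of the leading bins without a protein-coding start site. The windows were read from GRCm39 and are written 5′ to 3′. Capitals mark matches, on either strand, to short words of factor families. GATA factors were searched as AGATAA or, with the other first letter, TGATAA. RUNX factors were searched as TGTGGT or, as a variant, TGCGGT. ETS factors were searched as CCGGAA or, as a longer form, CAGGAAGT. CEBP factors were searched as the palindrome TTGCGCAA or, as variants of it, TTGCATCAA and also TTGCACAA. The windows before start sites are chr16:16681850-16682149 on the minus strand, chr11:87684107-87684406 on the plus strand and chr14:54949632-54949931 on the minus strand.
Igll1: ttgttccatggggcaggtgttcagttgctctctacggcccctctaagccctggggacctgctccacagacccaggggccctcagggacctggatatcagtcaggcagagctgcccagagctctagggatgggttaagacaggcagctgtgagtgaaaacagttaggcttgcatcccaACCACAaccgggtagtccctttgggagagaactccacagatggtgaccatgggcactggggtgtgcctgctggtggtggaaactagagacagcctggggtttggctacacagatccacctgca
Mpo: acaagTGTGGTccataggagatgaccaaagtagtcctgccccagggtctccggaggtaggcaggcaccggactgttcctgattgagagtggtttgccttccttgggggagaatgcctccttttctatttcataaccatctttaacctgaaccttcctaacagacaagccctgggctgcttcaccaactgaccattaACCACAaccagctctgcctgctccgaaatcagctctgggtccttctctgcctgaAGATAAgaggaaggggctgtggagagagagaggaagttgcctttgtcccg
Cebpe: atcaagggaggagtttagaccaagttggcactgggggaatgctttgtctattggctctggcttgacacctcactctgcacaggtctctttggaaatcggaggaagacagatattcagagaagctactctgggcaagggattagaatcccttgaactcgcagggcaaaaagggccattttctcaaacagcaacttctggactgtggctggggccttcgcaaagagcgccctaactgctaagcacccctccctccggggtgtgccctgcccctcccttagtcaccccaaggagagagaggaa
The other windows, on the plus strand, hold no annotated exon and are the stretches of their bins with the most matches, so that their number of matches is no finding. They are chr4:41636130-41636429 beside Enho, chr11:54812039-54812338 within Tnip1 and chr6:88093907-88094206 upstream of Gata2.
Beside Enho: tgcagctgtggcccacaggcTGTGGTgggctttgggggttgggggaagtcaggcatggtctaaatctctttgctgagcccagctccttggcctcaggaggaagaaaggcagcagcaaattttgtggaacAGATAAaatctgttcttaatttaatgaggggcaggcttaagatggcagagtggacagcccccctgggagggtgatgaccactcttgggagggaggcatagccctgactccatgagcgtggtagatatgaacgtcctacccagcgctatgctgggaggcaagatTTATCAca
Within Tnip1: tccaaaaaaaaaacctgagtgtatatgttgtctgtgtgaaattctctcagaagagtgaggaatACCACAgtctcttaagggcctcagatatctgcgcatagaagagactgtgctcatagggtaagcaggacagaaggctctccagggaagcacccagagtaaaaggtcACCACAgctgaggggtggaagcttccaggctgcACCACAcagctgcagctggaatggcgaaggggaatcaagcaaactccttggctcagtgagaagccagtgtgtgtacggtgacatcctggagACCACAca
Upstream of Gata2: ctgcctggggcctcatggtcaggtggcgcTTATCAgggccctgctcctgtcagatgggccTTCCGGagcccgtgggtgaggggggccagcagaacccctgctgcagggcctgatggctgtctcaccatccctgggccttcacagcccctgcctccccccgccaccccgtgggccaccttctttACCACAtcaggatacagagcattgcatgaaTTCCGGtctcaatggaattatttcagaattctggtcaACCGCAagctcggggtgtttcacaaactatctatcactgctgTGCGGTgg
Before its start site, Mpo has 1 GATA and 2 RUNX words and Igll1 has 1 RUNX word, and none of these letters was found before Cebpe. Such a window holds a GATA word in 19.4%, a RUNX word in 21.1%, an ETS word in 16.0% and a CEBP word in 1.31% of the 21757 protein-coding genes. Of 413024 stretches of 300 bases cut from tested bins without a start site, 24.6% hold a GATA word, 26.01% a RUNX word, 5.79% an ETS word and 0.999% a CEBP word.

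In the 1240 bins the median coverage was 4230.5 reads before LPS and 2972 after it in p30, and 4861.5 and 2399.5 in p42. Over all tested bins it was 3066, 2839, 3749 and 2466 reads. Untreated, the selected bins thus stood above the other tested bins, at 1.38 times the median of all in p30 and 1.30 times in p42, and after LPS they stood close to it, at 1.05 and 0.973 times. That a difference appears here follows from the selection. Fewer cells with the mark and less of the mark per cell cannot be told apart in these libraries.

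The selected bins are 3.96% of those tested. As a comparison, 1319 bins were at 0.25 or more in both isoforms, 324 were lower in p30 and higher in p42, and 435 were higher in p30 and lower in p42. Within the selected bins the median centred log2 change was -0.37 in p30 and -0.39 in p42. The lowest values were -1.13 in p30 and -1.23 in p42. The median counting error (SE) of the log2 ratio was 0.03 in p30 and 0.04 in p42. Only 90 bins were at -0.5 or less in both isoforms, and 449 had a weaker change between -0.3 and -0.25. Just inside the threshold, the bin that holds the start of Gfi1b was at -0.25 in p30 and -0.30 in p42. Just outside, a bin in an intron on chromosome 8 was at -0.27 in p30 and -0.25 in p42.

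**Figure D1:**
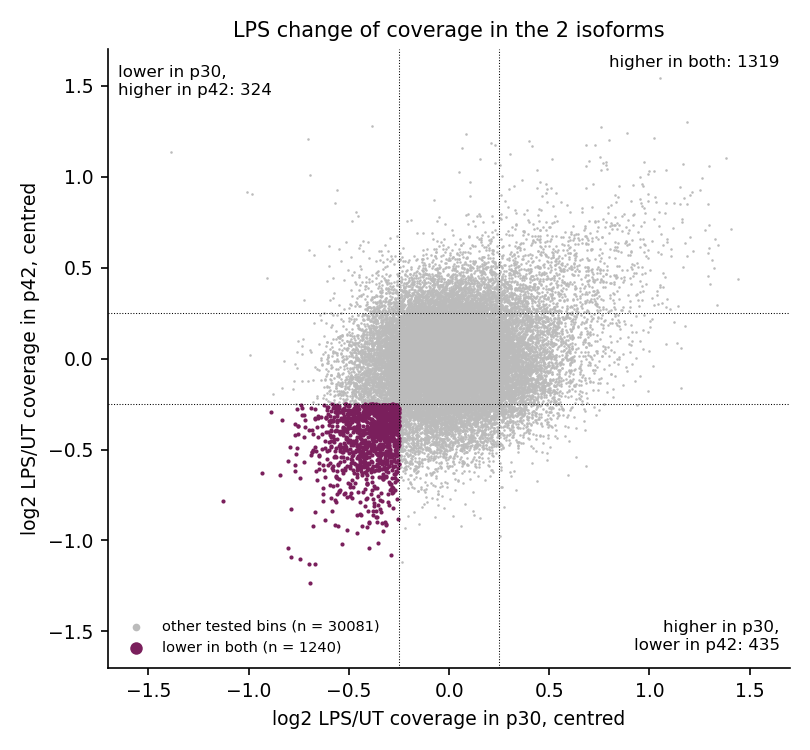
Each point is 1 tested bin, with its centred log2 ratio of LPS over UT coverage in p30 (horizontal) and in p42 (vertical); dotted lines mark -0.25 and 0.25, and 1 bin lies outside the axes. The 1240 selected bins (purple) fill the lower left corner, against 1319 bins in the upper right and 324 and 435 in the other corners.

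Start sites of 154 protein-coding genes lay in 149 of the selected bins. The 20 genes with the largest changes were ranked by the weaker of both isoforms. Igll1 encodes lambda5, a part of the surrogate light chain of the pre-B cell receptor, and its start-site bin had the lowest weaker change. The Igll1 bin had 5738 reads untreated and 3270 with LPS in p30, against 10092 and 3044 in p42. Centred on all tested bins, its log2 ratio of p42 over p30 coverage was 0.54 in UT and 0.12 in LPS. Its centred log2 change was -0.70 in p30 and -1.13 in p42. Vpreb1a, which encodes another part of the surrogate light chain, also had its start in a selected bin, as seen after its values were known. That bin lies directly next to the Igll1 bin and also holds the start of Top3b. The Vpreb1a bin had 4690 reads in p30 UT and 3343 in p30 LPS, and 7340 in p42 UT and 2703 in p42 LPS.

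Further genes of the 20 follow. Fut7 encodes the fucosyltransferase that completes selectin ligands, and its bin had 5750 reads in untreated p30 cells and 3468 with LPS, and 7709 and 2747 for p42. Its centred log2 change was -0.62 in p30 and -0.89 in p42. The next bin downstream holds the start of Abca2, a lipid transporter of endosomes, with a centred change of -0.59 in p30 and -0.77 in p42. Ltb4r1, the receptor for leukotriene B4, had 3771 reads before LPS and 2562 after it in p30, and 5165 and 2310 in p42. Parvg, an integrin-linked adaptor of blood cells, had 5770 and 3919 reads in p30 and 10120 and 4464 in p42, UT before LPS. In each of these bins both LPS lists had fewer reads than both UT lists. Within each isoform this follows from the selection, and the reads are not scaled for depth. Ltb4r1 and Parvg were not selected with centring on modelled contacts.

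Others of the 20 are regulators better known elsewhere. Sox18 encodes a transcription factor of endothelial cells, and its bin had 5720 reads untreated and 3381 with LPS in p30, against 4909 and 2125 in p42. Its centred log2 change was -0.65 in p30 and -0.61 in p42. Lrp5, a co-receptor for Wnt ligands, was at -0.50 in p30 and -0.59 in p42, and Rbm38, an RNA-binding protein, at -0.46 and -0.64. Zscan10 and Zfp467, zinc finger genes, were at -0.51 and -0.45 in p30 and at -0.76 and -0.79 in p42. Zfp467 was not selected with centring on modelled contacts. Enho, Slc35c2, Dnah6, Emid1, Ak8, Spaca9, Krt80, Nhsl3 and Mvb12b complete the 20 with Mpo. The values of these 9 genes lay between -0.79 and -0.48 in p30 and between -0.76 and -0.45 in p42, and Ak8 and Spaca9 share a bin.

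Genes of the granulocyte programme were among the selected start sites. Of 26 granule and neutrophil genes, 13 had a tested start-site bin and 3 of these were selected, against 2.47% of all 6232 tested start sites; none was among the bins higher in both isoforms, against 2.02% of all. Mpo encodes myeloperoxidase of the primary granules. Its start-site bin had 8201 reads in untreated p30 cells and 5589 with LPS, and 18014 and 6570 for p42. The p42 UT list stood far above the other 3. The centred log2 change of Mpo was -0.44 in p30 and -0.85 in p42. Prtn3, which encodes proteinase 3 of the same granules, had 8566 reads before LPS and 6620 after it in p30, and 13340 and 6092 in p42. Its change was -0.26 in p30, near the threshold, and -0.53 in p42. Elane, the neighbouring elastase gene, was just not selected, with -0.24 in p30 and -0.46 in p42. Cebpe encodes the CEBP factor of late granulocyte maturation, and its bin had 4543 reads untreated and 3022 with LPS in p30, against 12582 and 6268 in p42. Cebpe coverage was thus higher in p42 than in p30 under both treatments, and its change was -0.48 in p30 and -0.40 in p42. With centring on the ratio of modelled contacts in place of the median, 1 of the 13 genes (Cebpe) was selected, and with centring within classes of GC content 2 were (Cebpe and Mpo). Within classes of coverage 3 were (Elane, Mpo and Prtn3). Of all 6232 tested start sites, 57 were selected with modelled contacts, 104 within GC classes and 195 within coverage classes. With either class centring 1 gene of the list was among the bins higher in both isoforms. Of all tested start sites, 137 were so within GC classes and 143 within coverage classes.

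Some start sites of stem cell, erythroid and megakaryocyte genes were selected. Of 18 tested stem and progenitor factors 3 were selected (Cbfa2t3, Gfi1b and Zfpm1), and of 14 tested erythroid and megakaryocyte genes also 3 (Gfi1b, Gp9 and Zfpm1), with 2 genes in both lists and 2.47% of all start sites as the background. With centring on modelled contacts or within GC classes 1 gene of each list was selected, namely Cbfa2t3 and Gp9. Of all 6232 tested start sites, 57 and 104 were selected under these centrings, in that order. Other erythroid and megakaryocyte genes were above 0, such as Ppbp, a platelet chemokine, at 0.28 in p30 and 0.24 in p42, and Rap1b, a small GTPase of platelets, at 0.49 and 0.05. Pf4, platelet factor 4, was at 0.27 and 0.03. Cbfa2t3 encodes ETO2, a corepressor in complexes with TAL1. Its bin had 3467 reads in untreated p30 cells and 2247 with LPS, and 5177 and 2511 for p42, a centred log2 change of -0.51 in p30 and -0.44 in p42. Zfpm1 encodes FOG1, the cofactor of GATA1, and had 6728 reads before LPS and 4871 after it in p30, and 5615 and 2640 in p42. Its change was -0.35 in p30 and -0.49 in p42. Gp9 encodes platelet glycoprotein IX and had 3337 reads untreated and 2005 with LPS in p30, against 2556 and 1412 in p42. Its change was -0.62 in p30 and -0.25 in p42. Gfi1b, a zinc finger repressor, had 1833, 1427, 2535 and 1356 reads in the same order and was the selected start-site gene closest to the threshold. The median over the stem and progenitor list was -0.10 in p30 and -0.25 in p42, beside 0.07 and -0.13 over all tested start sites, and with centring on modelled contacts the p30 median of the list was 0.09.

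Fewer genes of the other lists were found. Gna15, a G protein subunit of haematopoietic cells, was 1 of 21 tested genes of G protein, TGF-beta or Notch signalling, with 3634 reads in untreated p30 cells and 2589 with LPS, and 4136 and 2215 for p42. Mxd4, which competes with MYC for its partner MAX, was 1 of 11 tested MYC and ribosome biogenesis genes, with 3252, 2405, 3057 and 1624 reads in the same order. None of 33 tested NF-kB and inflammatory genes was selected, and 9 were among the bins higher in both isoforms, namely Bcl3, Ccl5, Gadd45b, Il6, Marcksl1, Nfkb2, Tlr2, Tnfaip3 and Traf1, against 2.02% of all start sites. Genes of other lists in such bins were Bst2 and Stat2 (2 of 5 interferon-stimulated genes), Cish and Dusp4 (2 of 22 signal feedback genes), Adora2a and Ly6a. With centring on modelled contacts the NF-kB and inflammatory genes higher in both numbered 3, beside 32 of all 6232 tested start sites. Interferon-stimulated genes then numbered 0, signal feedback genes 1 and G protein, TGF-beta or Notch genes 0. Progenitor receptors and surface genes numbered 1. Under this centring Gna15 and Mxd4 were not selected, and S1pr4 and Cxcr4 were. Within classes of coverage Cd34 and Smad6 were selected as well. Mxd4 was not selected within classes of GC content either. None was selected of 55 cytosolic ribosomal protein genes, 22 signal feedback genes, 14 progenitor receptors and surface genes, 11 AP-1 genes, 11 cell cycle genes, 5 interferon-stimulated genes, 3 mast and basophil genes and 1 lymphoid gene. The lists are short, and a share of 2.47% gives less than 1 gene in most of them.

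**Figure D2:**
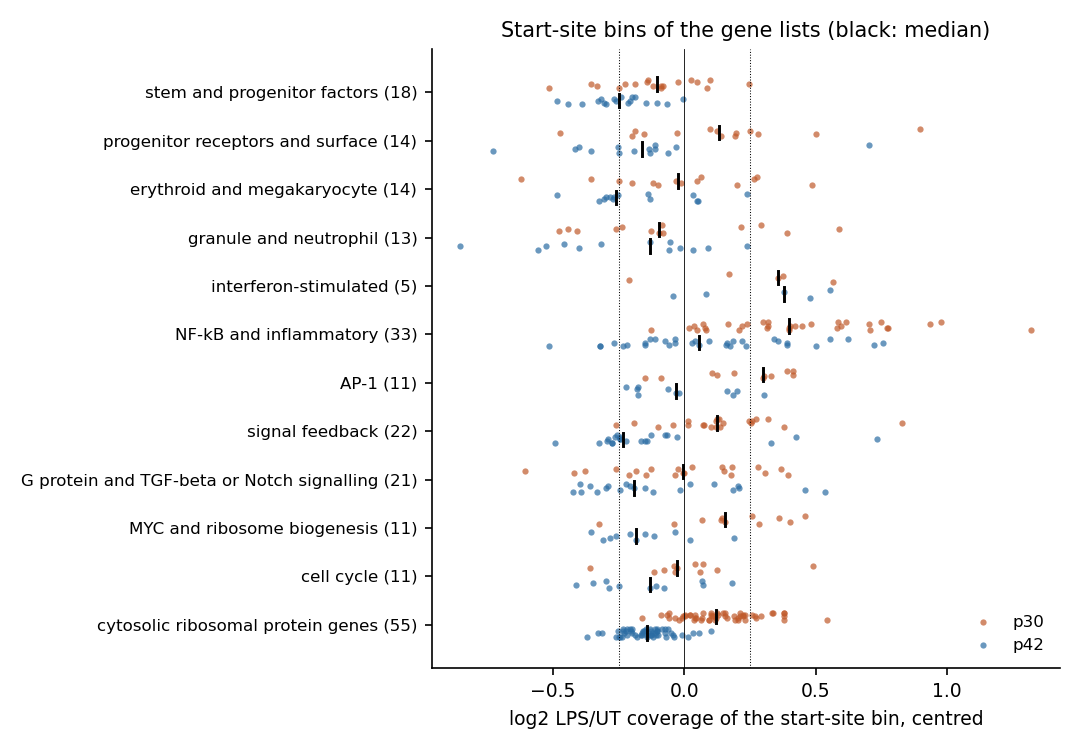
Each point is the start-site bin of 1 gene of a list with at least 5 tested genes (number in parentheses), with its centred log2 ratio of LPS over UT coverage in p30 (orange) and p42 (blue); black lines are medians and dotted lines mark -0.25 and 0.25. The stem and progenitor factors lie furthest to the left in p42 together with the erythroid and megakaryocyte genes, at medians of -0.25 and -0.26. Signal feedback genes, none of them selected, lie close to these in p42, at a median of -0.23. NF-kB and inflammatory genes lie to the right in p30, at a median of 0.40.

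**Figure D3:**
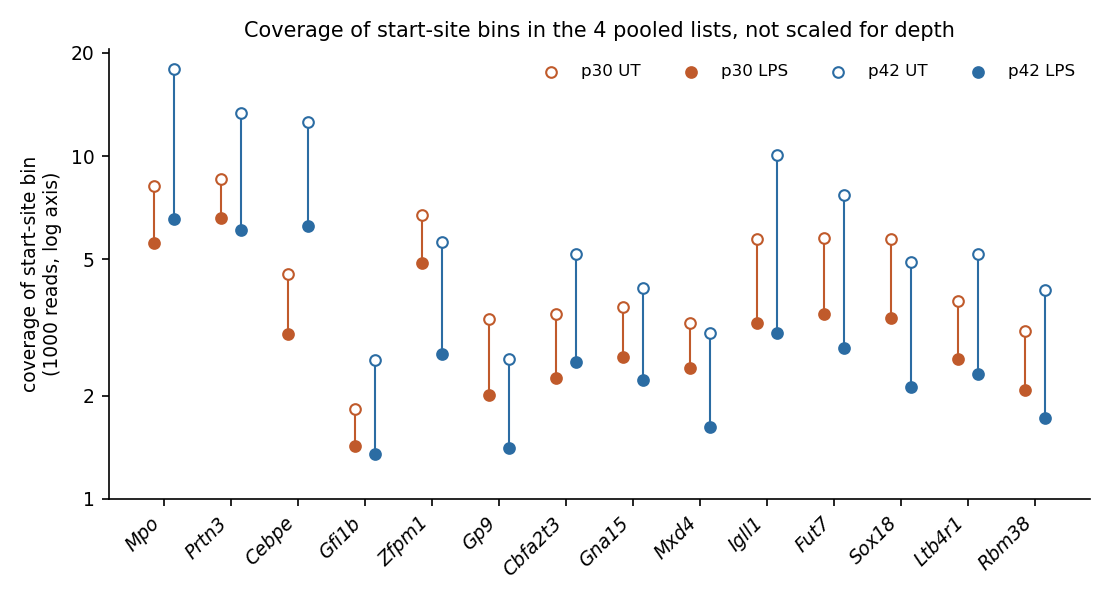
Coverage in units of 1000 reads (log axis, not scaled for depth) of the start-site bins of 14 genes in the 4 pooled lists, p30 in orange and p42 in blue, UT as open and LPS as filled points. Each LPS point lies below the UT point of its isoform, which follows from the selection. In p42 the Mpo points lie at 18014 reads untreated and 6570 with LPS.

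Most selected bins, 1091 of 1240 or 88.0% (95% Wilson interval 86.1% to 89.7%, for counting error only), held no protein-coding start site. In the bin with the lowest weaker change, chr4:41635001-41640000 beside Enho, coverage was 7079 reads before LPS and 3755 after it in p30, and 6169 and 1975 in p42. A bin 10 kb before it, chr4:41625001-41630000 in Dnai1, had 12750, 7417, 9430 and 2842 reads in that order. It looped to the Enho start-site bin 15 kb away with 73 contacts in p30 UT, 31 in p30 LPS and 49 in p42 UT, and the loop was not in the p42 LPS list. The bin chr14:30340001-30345000 lies in Prkcd, which encodes protein kinase C delta, and had 5290 reads untreated and 2836 with LPS in p30, against 8147 and 3021 in p42.

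The bin at chr6:88090001-88095000, between genes, lies with its centre 82.8 kb from the start of Gata2, a transcription factor required in blood stem and progenitor cells. It had 5717 reads in untreated p30 cells and 3158 with LPS, and 14915 and 4581 for p42. Again the p42 UT list was the highest, and the centred log2 change was -0.75 in p30 and -1.10 in p42. The bin had 6 loops before LPS and 2 after it in p30, and 42 and 9 in p42. The nearest start site was that of Rpn1, a subunit of the oligosaccharyltransferase, at 31.0 kb, with a loop in p42 UT alone (29 contacts). Rab7, a small GTPase of late endosomes, was joined in p42 UT with 26 contacts and in p42 LPS with 19. A loop to the Gata2 start-site bin was listed in p42 UT with 22 contacts and in p42 LPS with 11, and in neither p30 list. The start-site bin of Gata2 itself was not selected, at 0.02 in p30 and -0.20 in p42. A bin 10 kb closer to Gata2, chr6:88100001-88105000, was also selected, with -0.63 in p30 and -0.62 in p42.

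Tnip1 encodes an inhibitor of NF-kB signalling, and bins within it were among the 20 leading bins without a start site. The bin chr11:54810001-54815000 had the lowest p30 value of all selected bins, with 3549 reads untreated and 1505 with LPS in p30, against 4087 and 1562 in p42. Its centred log2 change was -1.13 in p30 and -0.79 in p42. The adjacent bin was at -0.93 in p30 and -0.63 in p42. A further selected bin in Tnip1 joined the gene's start site, 20 kb away, in all 4 lists with 26 contacts in untreated p30 cells and 25 with LPS, and 57 and 37 for p42. The start-site bin was itself at -0.13 in p30 and -0.52 in p42 and was not selected.

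The other leading bins without a start site were chr16:48680001-48685000 near Retnlg, chr6:124350001-124355000 nearest Pex5, chr5:140580001-140585000 near Lfng, chr11:54775001-54780000 near Gpx3 and chr15:101270001-101275000 near Krt80. Their centred log2 changes lay between -0.79 and -0.66 in p30 and between -1.23 and -0.67 in p42. The bin near Retnlg is thinly covered, with 662 reads before LPS and 355 after it in p30, and 1561 and 483 in p42. Lfng, a glycosyltransferase that modifies Notch receptors, was joined to its bin in all 4 lists with 116, 93, 139 and 59 contacts. Of the 1240 selected bins, 33 had under 1000 reads in at least 1 list.

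Start sites of 392 genes were joined by a loop in all 4 lists to at least 1 selected bin, which is 6.29% of the tested start sites, and 340 of these genes did not start in a selected bin themselves. None of the 392 started in a bin higher in both isoforms, against 2.02% of all tested start sites. The 52 that start in selected bins could not do so by definition. Contacts are also part of the coverage of both ends, so this is a description. Among the stem and progenitor factors Ikzf1, Hhex and Tal1 were joined to selected bins. Ikzf1, a zinc finger regulator of lymphoid cells, was joined to 2 selected bins 120 and 125 kb away. The nearer of these had 6804 reads untreated and 4967 with LPS in p30, against 10694 and 5045 in p42, and its contacts with Ikzf1 numbered 23, 15, 28 and 23. Hhex, a homeobox gene of early blood progenitors, was joined to a bin 60 kb away with 30 contacts in untreated p30 cells and 17 with LPS, and 54 and 25 for p42. Tal1, a master regulator of blood stem cells, was joined to a bin 35 kb away with 36, 27, 32 and 16 contacts. Cd34, a progenitor surface protein, was joined to a bin 15 kb away with 58, 41, 71 and 36 contacts. These contacts are not scaled for depth, and loops in all 4 lists without a selected end had medians of 29 and 28 contacts in p30 and 39 and 27 in p42. The pair of Ikzf1 with its farther bin, at 15, 15, 25 and 17 contacts, had the same number in both p30 lists.

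Some inflammatory genes were joined to selected bins. Irf1, an interferon regulatory factor, was joined to 2 selected bins 20 and 25 kb away, while its own start-site bin was at 0.17 in p30 and 0.04 in p42. The nearer had 4897 reads before LPS and 3606 after it in p30, and 6228 and 3153 in p42. Fos, the AP-1 gene, was joined to a selected bin 85 kb away with 22 contacts untreated and 22 with LPS in p30, against 39 and 18 in p42. That bin had 5435, 3732, 11102 and 5022 reads, and the Fos start-site bin was at 0.19 in p30 and -0.18 in p42. Of the NF-kB and inflammatory genes 3 of 33 were joined to a selected bin (Irf1, Slc2a6 and Tnip1), and 1 of 11 AP-1 genes, beside 6.29% of all start sites. Of G protein, TGF-beta or Notch genes 4 of 21 were joined (Gna15, Rhoh, S1pr4 and Smad6), and of granule genes 2 of 13 (Mpo and Ngp).

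The start site with the most such partners was that of Zfp36l2, which encodes an mRNA decay factor and was singled out for this number. It was joined in all 4 lists to 6 selected bins, from 60 to 215 kb away. Its own bin had 6240 reads in untreated p30 cells and 4342 with LPS, and 7184 and 3947 for p42, and it was selected with -0.41 in p30 and -0.26 in p42, but not with centring on modelled contacts or within classes of coverage or GC content. Scd2, a fatty acid desaturase, and C130050O18Rik had 5 selected partners each, and Mpo and Ramp1 were among the genes with 4. The Ramp1 bin had 28, 19, 24 and 12 loops in the same order, and counts of partners are not scaled for the number of loops. Mpo was joined to selected bins 10 to 25 kb upstream, and the nearest of these pairs had 119 contacts before LPS and 74 after it in p30, and 228 and 107 in p42.

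The selected bins lay next to each other. An adjacent selected bin was found for 684 of 1240, or 55.2% (95% Wilson interval 52.4% to 57.9%), and for 4.57% of all tested bins. For the bins higher in both isoforms this share was 58.5%, so that lying together was seen in either direction. Adjacent bins share H3K27ac domains that cross a bin border and are not independent. Bins at most 2 bins apart were joined into 737 runs, of which 467 were single bins, 160 held 2 bins and 110 held 3 or more. The latter held 453 bins, 36.5% of all selected bins.

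The longest run held 14 bins over 75 kb at chr5:113250001-113325000 within 2900026A02Rik, mostly in introns, and all 14 tested bins of this stretch were selected. Summed coverage was 77205 reads untreated and 54006 with LPS in p30, against 68937 and 29842 in p42. The next run held 12 of 13 tested bins over 65 kb from the start of Ramp1, a partner of the calcitonin receptor-like receptor. Its sums were 84079, 60339, 112240 and 47336 reads. The brightest bin of this run, 10 kb after the start-site bin, had 16339 reads in untreated p30 cells and 12689 with LPS, and 25575 and 9128 for p42.

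Other runs of 10 bins lay in and beside Cdk19, a kinase of the Mediator complex, outside protein-coding genes with its middle 35.4 kb from the start of Zfp36l2, and over Mvb12b, a subunit of the ESCRT-I sorting complex. Of the 5 longest runs, that near Zfp36l2 was the most covered, with sums of 107955 reads before LPS and 76637 after it in p30, and 127264 and 56464 in p42. Median centred changes in these 3 runs lay between -0.50 and -0.37 in p30 and between -0.54 and -0.39 in p42. Mpo lay at the end of a run of 6 bins, in which the start-site bin had the highest coverage in every list. In p42 UT the bin farthest upstream had 4640 reads and the start-site bin 18014, and in p42 LPS they had 2342 and 6570. Krt80 lay in a run of 7 bins and Sox18 and Tcea2 in a run of 6. All 7 bins at Krt80 were between -0.80 and -0.56 in p30 and between -0.67 and -0.27 in p42.

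**Figure D4:**
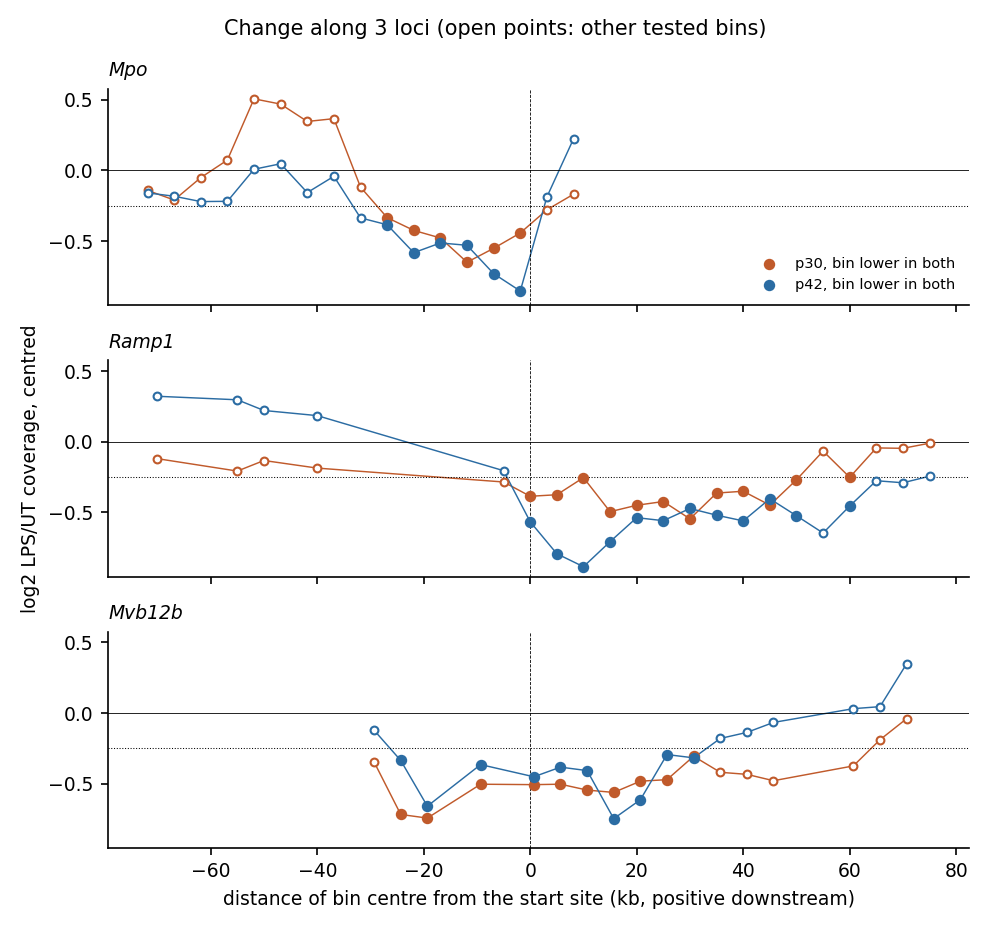
Centred log2 ratio of LPS over UT coverage in p30 (orange) and p42 (blue) for tested bins within 75 kb of the start sites of Mpo, Ramp1 and Mvb12b, by distance in kb from the start site (dashed line); filled points are selected bins and the dotted line marks -0.25. The selected bins lie upstream of Mpo, downstream of the start of Ramp1 and on both sides of the start of Mvb12b.

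By chromosome, the selected share of tested bins ran from 2.30% on chromosome 3 to 5.26% on chromosome 5 among autosomes, and was 4.29% on X. By annotation, 12.02% of the selected bins (95% Wilson interval 10.3% to 13.9%) held a protein-coding start site, against 17.6% of all tested bins and 9.02% of the bins higher in both isoforms. With centring on modelled contacts the share was 7.28%. Bins with a lncRNA start site but no protein-coding one made up 13.4%, against 8.70% of all tested bins. Bins between genes made up 26.05%, against 14.7% of all tested bins and 30.1% of those higher in both. Exons without a start site made up 30.1%, against 39.6% of all. Selected bins thus shared with the bins that went the other way a lower share of start sites and a higher share outside genes.

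**Figure D5:**
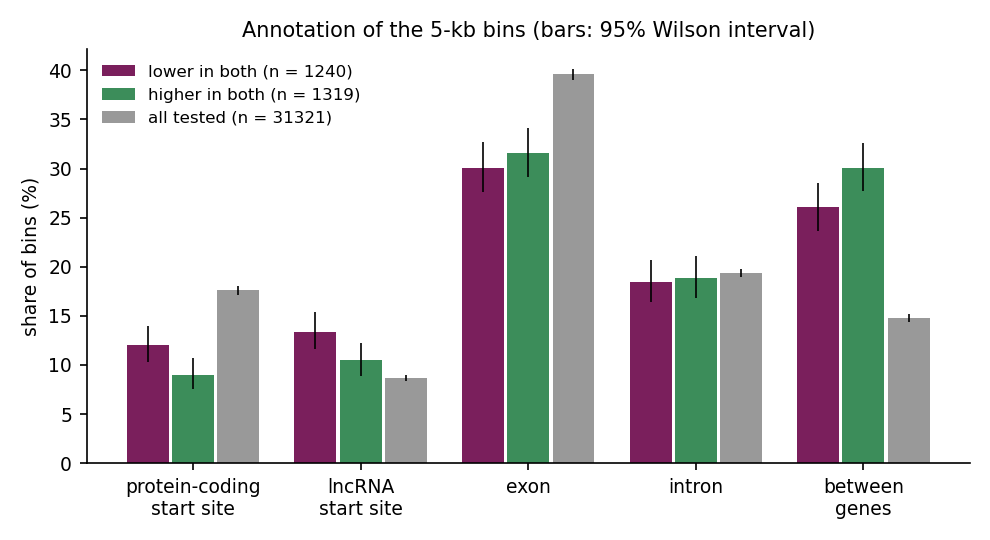
Share of bins in percent by annotation class for bins lower in both isoforms (1240, purple), higher in both (1319, green) and all tested (31321, grey), with 95% Wilson intervals for counting error. Between genes, the shares are 26.05%, 30.1% and 14.7%, and at protein-coding start sites 12.02%, 9.02% and 17.6%.

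The median GC content of the selected bins was 48.4%, against 46.6% of all tested bins and 45.2% of the bins higher in both isoforms. Across all tested bins the change went with GC content in p30 (Pearson's r = -0.32) and hardly in p42 (r = -0.03), a description over neighbouring bins that share libraries. With the log2 ratio centred within 10 classes of GC content, 1163 bins were selected, 992 of them among the 1240, and their median GC content was 46.8%. The part of base composition in the result was not tested beyond this. Mpo, Cebpe, Cbfa2t3, Gp9 and Gna15 were selected under this centring as well, and Zfpm1, Gfi1b, Prtn3, Mxd4 and Zfp36l2 were not.

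Words for transcription factor binding were counted, on both strands, in the 1091 selected bins without a protein-coding start site. Most bins of 5 kb hold the shortest words. GATA words were in 98.1% of selected bins and in 97.9% of all tested bins without a start site, at 0.886 and 0.994 per kb. Within the highest of 4 classes of GC content the densities were 0.589 and 0.574 per kb. RUNX words were in 99.3% of both, at 1.07 and 1.03 per kb. ETS words were in 67.4% of selected bins (95% Wilson interval 64.5% to 70.1%), 62.2% of all and 61.9% of the bins higher in both isoforms. By class, from low to high GC content, the ETS share was 47.7%, 67.2%, 67.5% and 74.4% in selected bins and 49.1%, 61.8%, 67.8% and 74.7% in all tested bins. CEBP words were in 17.9% of selected bins (15.7% to 20.3%) and in 15.7% of all. In the same classes the CEBP share was 21.1%, 22.3%, 17.4% and 14.04% in selected bins and 17.2%, 16.9%, 14.5% and 13.3% in all.

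Over all classes of GC content together, words of the factors that LPS brings to DNA were not more frequent than in all tested bins. Within the classes this did not hold throughout. The NF-kB words GGGACTTTC, GGGAATTTC and GGGAAATTC were in 10.7% of selected bins (9.02% to 12.7%), 11.0% of all and 16.7% of the bins higher in both isoforms. The AP-1 word TGAGTCA was in 58.3% (55.3% to 61.2%), 62.3% and 66.8% in the same order. The interferon response element ISRE was in 2.29%, 3.25% and 4%, and the CRE word TGACGTCA in 3.39%, 3.80% and 5.25%. The ATF4-CEBP composite word TGATGCAA, which a CEBP word above contains in reverse, was in 9.90%, 11.0% and 12.9%. In the lowest class of GC content the NF-kB, ISRE and composite shares were 12.5%, 6.25% and 14.8% in selected bins. Over all tested bins of that class they were 10.2%, 4.52% and 12.7%. In the highest class they were 10.4%, 0.843% and 5.90%, against 10.6%, 1.86% and 8.23%. The AP-1 share was 52.3% and 57.9% in these classes, against 60.4% and 61.1%. The E-box CACGTG was in 53.9% of selected bins and 50.5% of all, the GC box GGGCGG in 59.9% and 52.8%, and the NRF1 word GCGCATGCG in 1.01% and 1.22%. By class of GC content, from low to high, the E-box share was 35.2%, 50%, 55.8% and 61.5% in selected bins and 39.0%, 50.6%, 56.7% and 59.4% in all. The GC box share was 35.2%, 44.9%, 61.3% and 78.4% in selected bins and 31.4%, 48.2%, 61.4% and 78.6% in all. The CTCF core AGGGGGCG was in 8.98% of selected bins and 8.26% of all. These words are descriptions of the sequence and not of binding.

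Selected bins took part in more loops than the median tested bin before LPS and in a similar number after it. Their median number of loops was 5 untreated and 4 with LPS in p30, against 8 and 3 in p42, beside 3, 4, 6 and 3 over all tested bins. The bins higher in both isoforms had medians of 2, 5, 5 and 4. The list lengths differ, with 80489 loops in untreated p30 cells and 94609 with LPS, and 158233 and 78591 for p42. Of 13664 loops with an end in a selected bin, 2444 were in all 4 lists, 1225 or 8.97% in both UT lists alone and 70 or 0.512% in both LPS lists alone. For loops with an end in any tested bin these shares were 5.10% and 1.38%, and for bins higher in both isoforms 2.35% and 3.90%. A loop call depends on the coverage that chose the bins, so these numbers add no separate support.

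Contacts at a bin are part of the coverage that chose it, so contacts are given as a description. The 350 loops with both ends selected had a median of 48 contacts before LPS and 32 after it in p30, and 62 and 30 in p42. For the 2094 loops with 1 selected end the medians were 31, 24, 40 and 23, and for the 28588 without one 29, 28, 39 and 27. Centred on all loops in the 4 lists, the median log2 change of contacts was -0.43 in p30 and -0.48 in p42 for both ends selected, and -0.29 and -0.26 for 1 end. When each contact count was divided by the number that the loop caller expected from distance and coverage, the medians for both ends selected were -0.08 in p30 and -0.10 in p42. These were smaller than the medians of the contacts themselves.

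Loop partners of selected bins were often selected too. Among the ends joined in all 4 lists to a selected bin, 700 of 2684 or 26.1% were selected, against 4.66% of all loop ends. These 700 are the ends of the 350 loops with both ends selected, so each loop counts at both its ends. Contacts between a pair of bins are also part of the coverage that chose them, so the share is a description. At 100 kb or more, where a bin and its partner are not neighbours, it was 74 of 368 or 20.1%, against 4.54%. Neighbouring bins can share a partner at that distance too, so these ends are not independent. Bins higher in both isoforms were also joined to each other, with 32.7% at any distance. The 1984 partner ends that were not selected had a median centred log2 change of -0.14 in p30 and -0.15 in p42, beside 0.05 and -0.04 over all loop ends that were not selected. Of these 1984, 6 or 0.302% lay in bins higher in both isoforms, against 4.38% of all loop ends that were not selected. Of the partner ends, 18.4% held a protein-coding start site, against 22.97% of all loop ends.

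Coverage in p42 relative to p30 varied among the selected bins. Centred on all tested bins, the log2 ratio of p42 over p30 had a median of -0.06 in UT and -0.09 in LPS. These medians moved with the centring of the LPS change, to -0.34 in LPS with modelled contacts and to -0.0053 in UT within GC classes. The SD of this ratio among them reached 0.40 in UT and 0.39 in LPS, against 0.34 and 0.31 over all tested bins and 0.36 and 0.39 over the bins higher in both isoforms. In UT 134 bins or 10.8% were at 0.5 or more and 111 or 8.95% at -0.5 or less, against 7.60% and 4.36% of all tested bins and 10.9% and 3.26% of the bins higher in both. Cebpe was at 1.20 in UT and 1.27 in LPS, and Mpo at 0.86 in UT and 0.45 in LPS, so that these start-site bins were on the p42 side. The bin upstream of Gata2 was at 1.11 in UT and 0.76 in LPS. Emid1 was at -0.65 in UT and -0.69 in LPS, and the bin in Dnai1 beside Enho at -0.71 and -1.16. The bins lower after LPS in both isoforms were thus not of one kind in their isoform preference.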

How the data were processed

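H3K27ac HiChIP was done by the authors on 8 libraries, 2 per group. Per the labels and the study's methods, reads were mapped to mm39 with BWA 0.7.17, PCR duplicates were removed with pairtools and loops were called with FitHiChIP, here in bins of 5 kb. The authors deposited 1 list per group. How replicates were pooled is not given in the sources used here. The deposited contact count of a bin pair is not normalized, the deposited expected count and the contact probability, a fraction, come from the authors' loop caller, and every deposited q-value is under 0.01. The deposited coverage signal gives, for each bin, its reads, and the authors' peak flag is a score of 0 or 1. No bin listed in all 4 lists had differing flags. The 12 other value columns per list were not used. The caller lists significant pairs alone, so that a bin without a loop has no coverage here, and the peak set and depth decide which bins could be tested.

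Modelled contacts, expected count over probability, numbered 17976716 untreated and 14503330 with LPS in p30, against 18999991 and 15831583 in p42. Log2 ratios were centred on the median, which was -0.11 in p30 and -0.60 in p42. Genes were the 21770 protein-coding genes of the GENCODE annotation of GRCm39 with the start of the canonical transcript, 6232 of them in tested bins, and sequence came from GRCm39, which mm39 denotes. Motif words were exact matches. The members and the lists were chosen with earlier results of these data known. Genes named are the 20 with the largest weaker change, the list genes at selected bins, the 10 leading bins without a start site, the 5 longest runs and the bins at the threshold. Others are named as chosen after their values were seen, or because a loop or list count names them. Wilson intervals and the counting error cover counting error only, and PCR reads are not independent molecules. No test was made, since each group is 1 pooled list. Alternatives were other thresholds, centring on modelled contacts or within coverage or GC classes, autosomes, a minimum of loops, lists of equal length, merged bins and a wider start-site window, and, chosen after seeing the data, at least 1000 reads in every list. Python 3.11.15 with numpy 2.4.6, pandas 2.3.3 and pysam 0.24.0 was used.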

Additional observations from a re-analysis of the deposited data

Results flagged for a closer look

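The change after LPS went with coverage in opposite directions in p30 and p42. Across the 31321 tested bins, Pearson's r of the centred log2 change with mean log2 coverage was 0.295 in p30 and -0.382 in p42. The bins share libraries and neighbours, and the difference between the isoforms was not tested. With centring within 10 classes of coverage, 1472 bins were selected, of which 1040 were among the 1240.

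Bins without coverage in a list lie outside the comparison. Peak bins listed in both UT lists and in neither LPS list numbered 2606, and 268 of them held a protein-coding start site. Peak bins listed in both LPS lists and in neither UT list numbered 537, and 40 of them held one. The lists differ in length, and the part of this in the counts was not tested.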

How the results depend on the processing

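No paired analysis was possible because the replicates of each group are pooled in 1 list, and for the same reason no replicate could be left out. At a threshold of -0.5, 90 bins were selected, 10% held a start site, median GC content was 49.0%, 35.6% had an adjacent selected bin, the median log2 p42 over p30 coverage was -0.0022 in UT and -0.029 in LPS, and 12.2% of loop partners were selected, against 0.314% of all loop ends. At -0.15, 2860 bins were selected. Centred on the ratio of modelled contacts, which puts the median of all bins at 0.20 in p30 and -0.34 in p42, 742 bins were selected, 374 of them among the 1240. Their share of start sites was 7.28%, GC content 50.2%, adjacency 49.2%, and p42 over p30 -0.10 in UT and -0.34 in LPS. Of the 30 genes of the naming rule, 19 were selected under this centring, and Mpo, Parvg, Ltb4r1, Zfp467, Ramp1, Zfpm1, Mxd4, Gna15, Zfp36l2, Prtn3 and Gfi1b were not. Within coverage classes, p42 over p30 was -0.11 in UT and -0.14 in LPS, 30.9% of partners were selected, and Cebpe, Zfp36l2 and Gfi1b were not selected. Within GC classes, start sites made up 8.60%, GC content was 46.8%, adjacency 50.1%, p42 over p30 -0.0053 in UT and -0.058 in LPS, and 23.2% of partners were selected, while Zfpm1, Mxd4, Zfp36l2, Prtn3 and Gfi1b were not selected. With at least 3 loops in every list, 554 bins were selected, with start sites in 14.6%, GC content 49.6% and adjacency 50.2%. Adjacent bins merged to 820 regions, 17.6% with a start site, and with start sites within 2.5 kb the share was 20.7%, against 29.0% of all tested bins. The causes were not tested, except that a stricter threshold, merging or a minimum of loops leaves fewer bins by construction. With at least 1000 reads in every list, chosen after seeing the data, 1201 bins were selected, 1183 of them among the 1240. Centring on modelled contacts also turned the sign of list medians: in p30 that of stem and progenitor factors from -0.10 to 0.09, of granule genes from -0.10 to 0.10 and of erythroid and megakaryocyte genes from -0.02 to 0.17, and in p42 that of NF-kB and inflammatory genes from 0.06 to -0.28. Within GC classes the erythroid and megakaryocyte median in p30 was 0.01. Depth limits the thinly covered bins, where the counting error of the log2 ratio reached 0.23 in each isoform.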
